A study of Xenopus tropicalis with 21 samples.

Results

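The amino acid transporters described here are 59 genes, taken by name from the 20288 rows of both tables. A row was included where it held a single gene name beginning with slc1a, slc3a, slc6a, slc7a, slc16a10, slc36a, slc38a or slc43a, with 1 name excepted by the rule. The genes were measured in liver RNA from mature female Xenopus tropicalis, the tropical clawed frog. There were 5 F2 BaP, 5 F2 control, 6 F1 BaP and 5 F1 control frogs, 21 libraries in all. BaP names a lineage whose F0 ancestors were kept from tadpole to mature adult in benzo[a]pyrene, a polycyclic aromatic hydrocarbon, at 50 ng/L, and the control lineage is that labelled as control. The F1 and F2 frogs themselves were never placed in BaP, and their age beyond maturity is not given in the sources used here. Within each generation, BaP frogs were set against control frogs, to ask which hepatic genes the ancestral exposure is associated with. The unit is FPKM, a fragment count corrected for transcript length and sequencing depth, so levels can be compared between genes. The authors' deposited tables hold 1 FPKM value per group and gene. No value of a single frog was analysed here, so no SD or n stands beside a level, and how deeply each frog was sequenced is unknown. A call means that the authors' Cuffdiff test was done and its q, the p adjusted over all tested rows, was under 0.05. The labels name the frogs of a group as biological replicates. Exposure and lineage go together, so the ancestral exposure cannot be told apart from other differences between the lineages.

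Amino acid transporters of the solute carrier (SLC) families move amino acids across the plasma membrane and the membranes of lysosomes. Some use the sodium gradient to load the cell, others exchange an amino acid inside for another outside, and a few let amino acids run down their gradient. The slc7 light chains work only as partners of an slc3 heavy chain, which carries them to the cell surface. In the liver, mammalian work assigns these carriers the uptake of alanine, glutamine and arginine for glucose and urea synthesis, and the release of glutamine and branched amino acids. The roles given below come from the mammalian genes. The name rule is wider than the label. Of the 20 slc6a genes, several carry GABA, taurine, betaine, creatine or monoamines in mammals, and slc7a6os is named for lying opposite slc7a6 and is not a carrier.

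A few carriers made up much of the transporter RNA, and slc38a3 was the only called gene of the 59. The summed level of all 59 genes was 513.9 FPKM in F2 BaP and 511.2 FPKM in F2 control livers, and 531.0 FPKM in F1 BaP and 537.6 FPKM in F1 control livers. The genes slc43a2, slc7a8 and slc7a2.1 together held 49.1% of that sum in F2 BaP and 49.9% in F2 control, and 55.3% in F1 BaP and 58.8% in F1 control livers. Of the 59 genes, 28 reached 1 FPKM in at least 1 group, 13 reached 10 FPKM, and 31 stayed below 1 FPKM in every group. The lowest 18 stayed below 0.1 FPKM throughout, and slc6a4l, a relative of the serotonin carrier gene, was listed at 0 in all 4 groups.

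**Figure D1:**
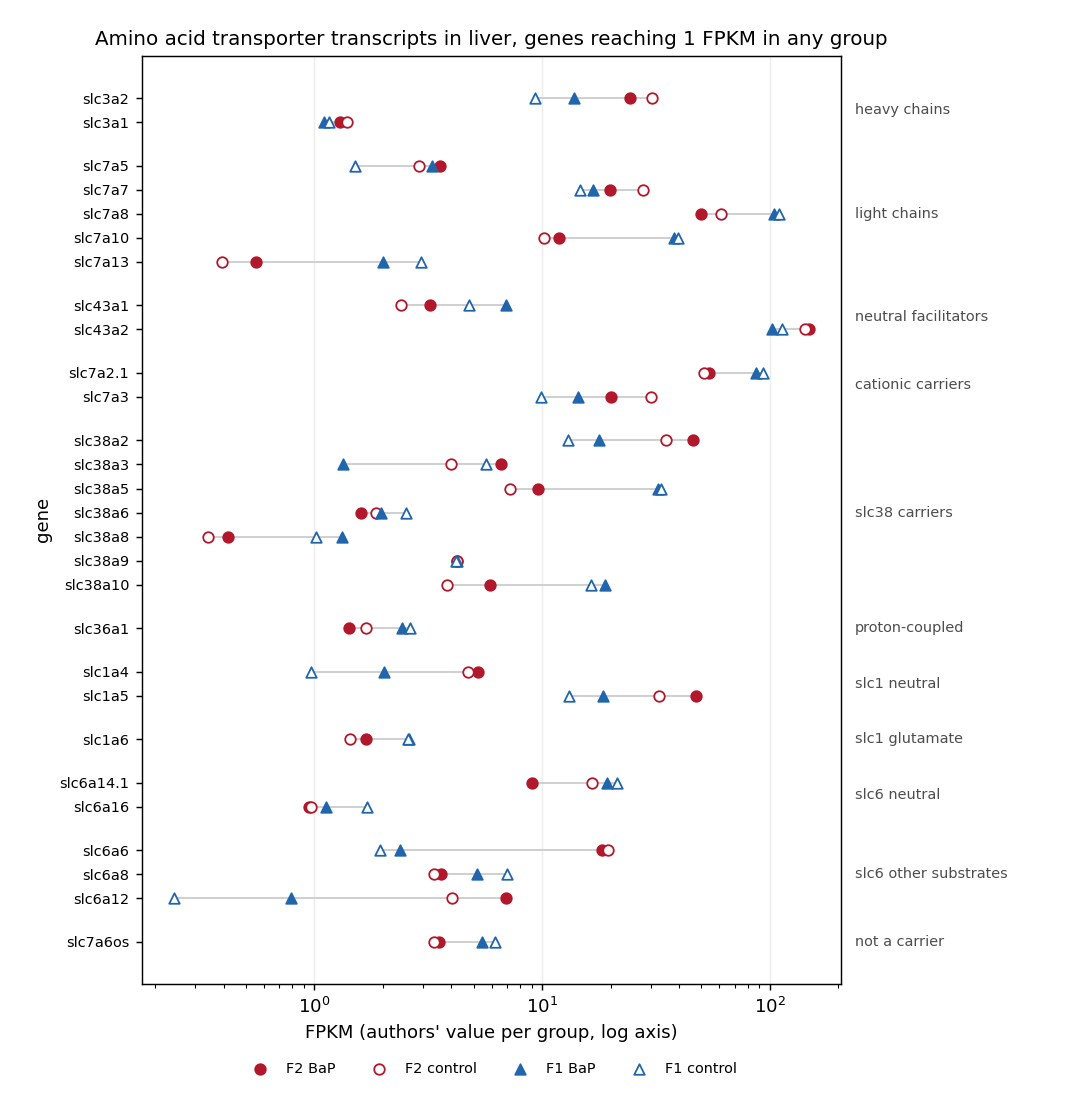
Levels of the 28 genes that reached 1 FPKM in at least 1 group, on a log axis of FPKM. Circles are F2 and triangles F1, filled for BaP and open for control, each 1 value per group as the authors give it, with no error, and the grey line spans the 4 values. The gene slc43a2 lies at 148.6 FPKM in F2 BaP livers, the highest point, and the F1 BaP point of slc38a3 lies apart from its other 3, at 1.34 FPKM. F1 and F2 were normalized separately.

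Cuffdiff had tested 31 of the 59 genes in F2 and 29 in F1, 27 of them in both, and none of the 26 tested in neither exceeded 0.480 FPKM. In F2 none of the 31 tested genes was called at q under 0.05, where 1.32% of all tested rows were. An unadjusted p under 0.05 was seen for 3 genes higher in BaP livers, where 4.41% of all tested rows were such, and 3 lower, where 4.49% were. In F1 the 1 call among 29, slc38a3, compares with 1.67% of all tested rows, 0.612% called higher and 1.05% called lower. An unadjusted p under 0.05 was seen for 3 genes higher in F1 BaP livers, against 4.35% of all tested rows, and 2 lower, against 4.55%. Both directions together made 19.4% of the tested transporters in F2, against 8.9% of all tested rows, and 17.2% in F1, against 8.91%. These shares are given as a description, with no test of the list. The median log2 fold change (BaP over control) was 0.06 in F2, with 16 of 31 values above 0, where all tested rows had a median of -0.03. In F1 it was -0.05, with 14 of 29 above 0, where all tested rows had 0.02. The transporters therefore had no common direction in either generation. In F2 1 of 31 changed by 2-fold or more, 3.23% against 3.14% of all tested rows, and in F1 5 of 29 did, 17.2% against 6.2%. The 95% intervals below were taken from each log2 fold change and p in the authors' deposited tables under a normal distribution. The deposited test statistic gives wider errors in nearly all rows, as described below, and intervals from it were not computed.

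**Figure D2:**
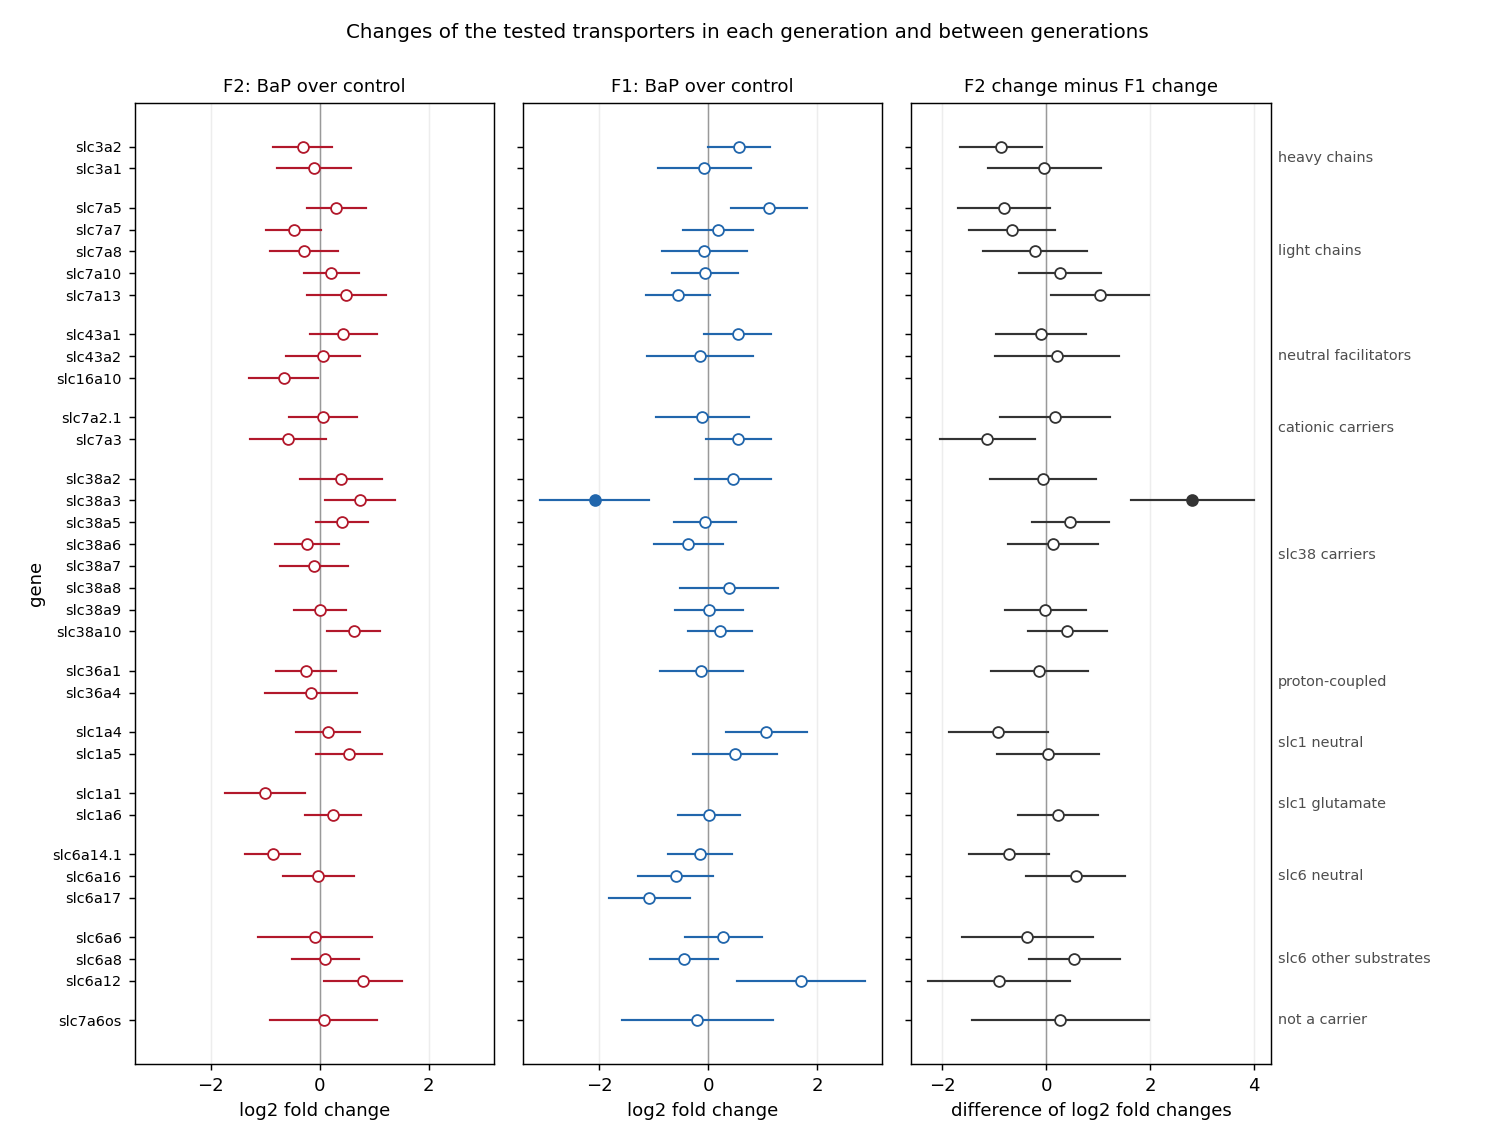
Log2 fold changes, BaP over control, of the 33 transporters tested in at least 1 generation, in F2 (left) and F1 (middle), and the F2 change minus the F1 change (right). Bars are 95% intervals taken from the deposited p, and filled points passed at q or adjusted p under 0.05. The filled points are slc38a3 in F1, at -2.08, and its difference between generations, at 2.81.

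Among the slc38 carriers, which move small neutral amino acids and glutamine with sodium, slc38a3 fell in F1. It encodes system N carrier SNAT3, which in mammalian liver takes up and releases glutamine, histidine and asparagine. Its level was 6.59 FPKM in F2 BaP and 3.97 FPKM in F2 control livers, and 1.34 FPKM in F1 BaP and 5.68 FPKM in F1 control livers. The F1 BaP livers were the low group, and the other 3 groups lay between 3.97 and 6.59 FPKM. This ranking crosses F1 and F2, which were normalized separately. The authors' deposited table for F1 gives a log2 fold change of -2.08 (95% interval -3.09 to -1.08), a 4.23-fold lower level in BaP livers, with q = 0.00654. Its p of 5e-05 is the smallest in the table, shared by 95 tests, so the interval can be wider than the test gave. In such bulk samples, fewer cells of a type and less RNA per cell cannot be told apart. In F2 the log2 fold change in the authors' deposited table was 0.73 (95% interval 0.09 to 1.37), with an unadjusted p of 0.0249 and q = 0.405, which did not pass. The gene lies at chromosome 4, 126866462 to 126906973. No level of a single frog was analysed, so how many frogs carry the F1 difference is not known.

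No other slc38 gene was called in either generation. Its closest relative in function, slc38a5 (system N carrier SNAT5), had 9.59 FPKM in F2 BaP and 7.21 FPKM in F2 control livers, and 32.2 FPKM in F1 BaP and 33.4 FPKM in F1 control livers. Its log2 fold changes in the authors' deposited tables were 0.41 in F2 and -0.05 in F1 (95% interval -0.63 to 0.52). For slc38a3 the F1 value was -2.08 (95% interval -3.09 to -1.08), and the 2 genes were not tested against each other. The system A carrier gene slc38a2, which loads alanine and other small amino acids and is induced by amino acid shortage in mammals, had 45.9 FPKM in F2 BaP and 35.02 FPKM in F2 control livers, and 17.8 FPKM in F1 BaP and 13.0 FPKM in F1 control livers. The authors' deposited tables give it 0.39 (q = 0.931) and 0.46 (q = 0.919), both above 0 and neither called. The other system A genes were scarcely detected: slc38a1 reached 0.0474 FPKM and slc38a4, which mammalian hepatocytes express strongly, 0.00251 FPKM at most.

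The slc38 genes with lysosomal or less known roles were not called, nor were the proton-coupled carriers. For slc38a9, which senses arginine at the lysosome for the growth kinase complex mTORC1, the level was 4.21 FPKM in both F2 groups and 4.25 FPKM in F1 BaP and 4.20 FPKM in F1 control livers. Its log2 fold changes in the authors' deposited tables were -0.00029 in F2 (95% interval -0.48 to 0.48) and 0.02 in F1 (95% interval -0.61 to 0.64). The gene slc38a10 had 5.90 FPKM in F2 BaP and 3.84 FPKM in F2 control livers, and 19.0 FPKM in F1 BaP and 16.3 FPKM in F1 control livers. Its F2 log2 fold change in the authors' deposited table was 0.62 with an unadjusted p of 0.0136 and q = 0.3004, and its F1 value was 0.22. In the authors' deposited tables slc38a6 had -0.23 in F2 and -0.36 in F1, slc38a7, tested only in F2, had -0.10, and slc38a8, tested only in F1, had 0.39. The gene slc38a11 stayed below 0.01 FPKM in every group. The lysosomal proton-coupled carrier gene slc36a1 had -0.26 in F2 and -0.12 in F1, and slc36a4, tested only in F2, had -0.16, in the authors' deposited tables. For these 5 genes every q was 0.952 or higher.

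The heavy chains were both expressed, at unequal levels. The heavy chain gene slc3a2 (4F2hc, also CD98) had 24.3 FPKM in F2 BaP and 30.3 FPKM in F2 control livers, and 13.8 FPKM in F1 BaP and 9.31 FPKM in F1 control livers. Its log2 fold change in the authors' deposited tables was -0.31 in F2 (q = 0.904) and 0.57 in F1 (unadjusted p = 0.0531, q = 0.576). The other heavy chain gene, slc3a1 (rBAT), which in mammals serves cystine and cationic amino acid uptake in kidney, had 1.29 FPKM in F2 BaP and 1.39 FPKM in F2 control livers, and 1.10 FPKM in F1 BaP and 1.15 FPKM in F1 control livers. For slc3a1 the log2 fold changes in the authors' deposited tables were -0.11 in F2 and -0.07 in F1, neither called. The rBAT partner gene slc7a9 was nearly undetected, at 0.0688 FPKM at most.

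Light chain RNA was in excess of heavy chain RNA, mainly through slc7a8 (LAT2), an exchanger of neutral amino acids. The slc7a8 level was 50.0 FPKM in F2 BaP and 61.3 FPKM in F2 control livers, and 103.9 FPKM in F1 BaP and 109.2 FPKM in F1 control livers. The sum over the 8 light chain genes was 3.54 times the slc3a2 level in F2 BaP and 3.40 times in F2 control livers, and 11.9 times in F1 BaP and 18.1 times in F1 control livers. The sum covers the light chain genes among the 59 and includes slc7a9, the slc3a1 partner, while slc3a1 is left out of the ratio. These ratios compare RNA per length and say nothing of protein. Of the other light chains, slc7a10 (Asc-1, small neutral amino acids) had 11.9 FPKM in F2 BaP and 10.2 FPKM in F2 control livers, and 38.0 FPKM in F1 BaP and 39.4 FPKM in F1 control livers. The cationic and neutral exchanger gene slc7a7 (y+LAT1) had 19.9 FPKM in F2 BaP and 27.7 FPKM in F2 control livers, and 16.7 FPKM in F1 BaP and 14.7 FPKM in F1 control livers. None of these light chains was called. In the authors' deposited tables slc7a8 had log2 fold changes of -0.29 in F2 and -0.07 in F1, slc7a10 had 0.22 and -0.05, and slc7a7 had -0.48 and 0.18.

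Among the scarcer light chains, slc7a5 had the smallest p. It encodes LAT1, the leucine exchanger that many growing mammalian cells use in place of LAT2. Its level was 3.54 FPKM in F2 BaP and 2.87 FPKM in F2 control livers, and 3.28 FPKM in F1 BaP and 1.51 FPKM in F1 control livers. In F1 the log2 fold change in the authors' deposited table was 1.12 (95% interval 0.41 to 1.82), with an unadjusted p of 0.00185 and q = 0.0827, which did not pass. In F2 it was 0.31 with q = 0.913 in the authors' deposited table. The gene slc7a13, an aspartate and glutamate carrier of mouse kidney, had 0.553 FPKM in F2 BaP and 0.394 FPKM in F2 control livers, and 2.0002 FPKM in F1 BaP and 2.93 FPKM in F1 control livers. The authors' deposited tables give it 0.49 in F2 and -0.55 in F1, neither called. The genes slc7a6 and slc7a15 stayed below 0.5 FPKM in every group and were not tested.

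The neutral facilitator slc43a2 (LAT4), which lets branched amino acids, methionine and phenylalanine run down their gradient, had the highest mean level over the 4 groups and was not called. In F1 BaP livers slc7a8 was slightly above it. It had 148.6 FPKM in F2 BaP and 142.4 FPKM in F2 control livers, and 102.5 FPKM in F1 BaP and 113.4 FPKM in F1 control livers. Its log2 fold changes in the authors' deposited tables were 0.06 (95% interval -0.62 to 0.75) in F2 and -0.15 (95% interval -1.12 to 0.83) in F1. Its relative slc43a1 (LAT3) had 0.43 in F2 and 0.54 in F1 in the authors' deposited tables, with q = 0.815 and 0.692. The aromatic amino acid carrier gene slc16a10 (TAT1), at 0.569 FPKM in F2 BaP and 0.896 FPKM in F2 control livers, had an F2 value of -0.66 on the log2 scale in the authors' deposited table, with an unadjusted p of 0.0421 and q = 0.524. In F1 it was at 0.169 FPKM in BaP and 0.152 FPKM in control livers and was not tested.

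Cationic amino acid uptake, which brings arginine and lysine into the cell, was represented by slc7a2.1 and slc7a3. The first (CAT2, the liver form in mammals) had 53.8 FPKM in F2 BaP and 51.5 FPKM in F2 control livers, and 87.1 FPKM in F1 BaP and 93.6 FPKM in F1 control livers. Its log2 fold changes in the authors' deposited tables were 0.06 in F2 and -0.10 in F1. The gene slc7a3 (CAT3) had 20.1 FPKM in F2 BaP and 30.2 FPKM in F2 control livers, and 14.4 FPKM in F1 BaP and 9.84 FPKM in F1 control livers. Its log2 fold changes in the authors' deposited tables were -0.58 in F2 (unadjusted p = 0.101) and 0.55 in F1 (unadjusted p = 0.0682), neither called. The widely expressed mammalian carrier gene slc7a1 (CAT1) reached only 0.201 FPKM, and slc7a2.2 and slc7a14 stayed below 0.05 FPKM.

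The slc1 family holds neutral exchangers and glutamate carriers, and 1 of the 5 glutamate carriers, slc1a6, reached 1 FPKM. The glutamine exchanger gene slc1a5 (ASCT2) had 47.2 FPKM in F2 BaP and 32.7 FPKM in F2 control livers, and 18.5 FPKM in F1 BaP and 13.1 FPKM in F1 control livers. The log2 fold changes of slc1a5 in the authors' deposited tables were 0.53 (q = 0.670) in F2 and 0.50 (q = 0.929) in F1, both above 0 and neither called. The serine and alanine exchanger gene slc1a4 (ASCT1) had 5.23 FPKM in F2 BaP and 4.73 FPKM in F2 control livers, and 2.03 FPKM in F1 BaP and 0.967 FPKM in F1 control livers. Its F1 log2 fold change in the authors' deposited table was 1.07 (95% interval 0.32 to 1.81), with an unadjusted p of 0.005 and q = 0.158, and its F2 value was 0.15.

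Of the glutamate carriers, slc1a1 (EAAT3) was at 0.442 FPKM in F2 BaP and 0.890 FPKM in F2 control livers. The authors' deposited table gives it an F2 log2 fold change of -1.01 (95% interval -1.74 to -0.28), the one F2 change of 2-fold or more among the tested transporters, with an unadjusted p of 0.00685 and q = 0.208. In F1 it was not tested, at 0.210 FPKM in BaP and 0.304 FPKM in control livers. The gene slc1a6 (EAAT4), a carrier of cerebellar neurons in mammals, lay between 1.43 and 2.602 FPKM, with log2 fold changes of 0.24 in F2 and 0.02 in F1 in the authors' deposited tables. The genes slc1a2, slc1a3 and slc1a7 stayed at 0.0103 FPKM or below. In mammalian liver slc1a2 encodes EAAT2, which takes up glutamate near the central vein.

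In the slc6 family, slc6a14.1 came nearest to a call in F2. It is related to the mammalian broad carrier ATB0,+, which takes up neutral and cationic amino acids. Its level was 9.05 FPKM in F2 BaP and 16.5 FPKM in F2 control livers, and 19.2 FPKM in F1 BaP and 21.3 FPKM in F1 control livers. The F2 BaP livers were the low group, in a ranking that crosses F1 and F2, which were normalized separately. The F2 log2 fold change in the authors' deposited table was -0.87 (95% interval -1.37 to -0.37), with an unadjusted p of 0.0007 and q = 0.0507, against -0.15 and q = 0.9995 in F1. Adjusted over the tested rows that reached 1 FPKM, the F2 value was 0.0476. Its copy slc6a14.2 stayed below 0.32 FPKM, and how reads were shared between the copies is not given in the sources used here.

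The betaine and GABA carrier gene slc6a12 was higher in BaP than in control livers in both generations, without a call. Its level was 6.97 FPKM in F2 BaP and 4.02 FPKM in F2 control livers, and 0.787 FPKM in F1 BaP and 0.241 FPKM in F1 control livers. The log2 fold changes in the authors' deposited tables were 0.79 in F2 (unadjusted p = 0.0307, q = 0.458) and 1.71 in F1 (unadjusted p = 0.0043, q = 0.144). Both F1 levels were under 1 FPKM. Of the 27 genes tested in both generations, slc6a12 and slc38a3 alone had an unadjusted p under 0.05 in each. The 2 changes of slc38a3 had opposite signs, 0.73 in F2 and -2.08 in F1. The brain carrier gene slc6a17, which loads neutral amino acids into synaptic vesicles in mammals, had 0.448 FPKM in F1 BaP and 0.946 FPKM in F1 control livers. Its F1 log2 fold change in the authors' deposited table was -1.08 (unadjusted p = 0.00415, q = 0.140), and in F2 it was at 0.1001 FPKM in BaP and 0.171 FPKM in control livers and not tested.

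Carriers of osmolytes and creatine were expressed without a call. The taurine carrier gene slc6a6 had 18.3 FPKM in F2 BaP and 19.5 FPKM in F2 control livers, and 2.37 FPKM in F1 BaP and 1.95 FPKM in F1 control livers, with log2 fold changes of -0.09 and 0.28 in the authors' deposited tables. The creatine carrier gene slc6a8 lay between 3.36 and 6.98 FPKM. The orphan gene slc6a16 lay between 0.951 and 1.705 FPKM. The glycine, GABA, proline and monoamine carrier genes slc6a9, slc6a5, slc6a13, slc6a7, slc6a2, slc6a3 and slc6a4 stayed below 0.43 FPKM and were not tested. The remaining genes slc6a15 and slc6a8l stayed below 0.08 and 0.04 FPKM. The kidney and gut carrier genes slc6a19 and slc6a20, which take up neutral amino acids and proline in mammals, stayed below 0.12 FPKM.

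The change in F2 was then set against the change in F1, gene by gene, over 11677 rows tested in both tables. The difference, F2 minus F1, was divided by its standard error and adjusted over all those rows, of which 0.959% passed at an adjusted p under 0.05. Of 27 transporters, 1 passed. For slc38a3 the difference was 2.81 on the log2 scale (95% interval 1.62 to 4.01, adjusted p = 0.00189 from the authors' deposited tables, Benjamini-Hochberg). With standard errors from the deposited test statistic in place of the p, the adjusted p was 0.999999, and 1 row of 11677 was called. The z value of the deposited p was a median 2.29 times that statistic in both tables, so the statistic gives wider errors, in 99.9% of the rows compared in F2 and 99.7% in F1. An unadjusted p under 0.05 was found for 4 of the 27 genes, against 9.03% of all rows, and 3 of these did not pass. From the authors' deposited tables they were slc7a3 at -1.14 (adjusted p = 0.337), slc3a2 at -0.88 (adjusted p = 0.448) and slc7a13 at 1.04 (adjusted p = 0.459, Benjamini-Hochberg in each case). The last was chosen after its values were seen. Signs were opposite in F2 and F1 for 13 of the 27 genes, 48.1%, against 55.5% of all rows tested in both.

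**Figure D3:**
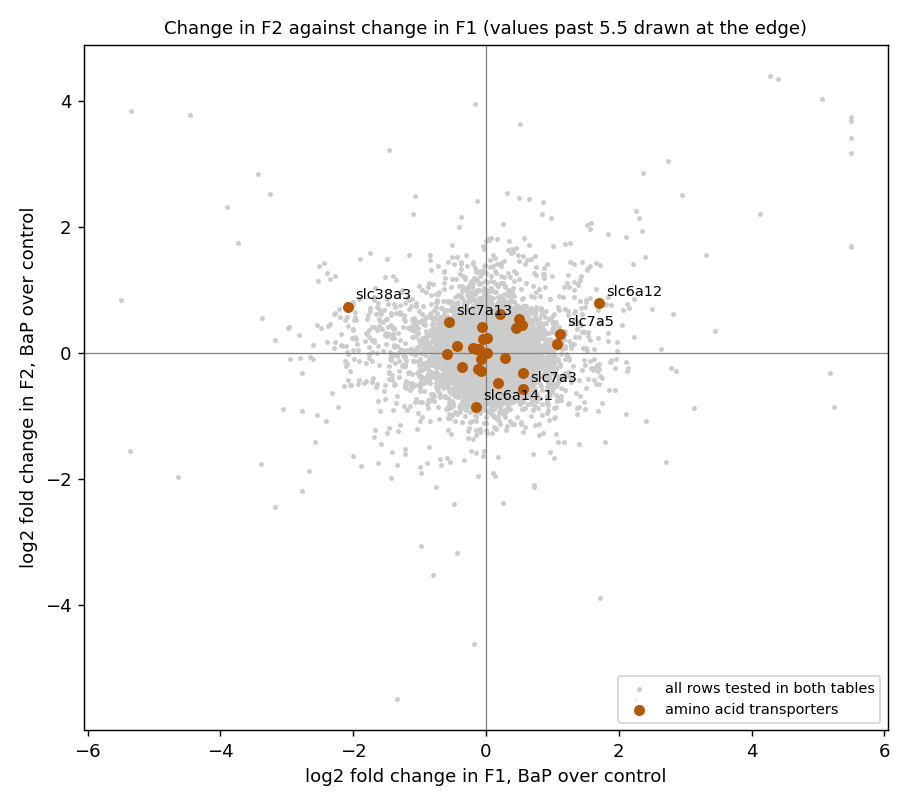
Log2 fold change in F2 against that in F1, BaP over control in both, for all rows tested in both tables (grey) and 27 amino acid transporters (brown). Most transporters lie within the cloud around 0, slc38a3 lies at 0.73 in F2 and -2.08 in F1, and slc6a12 lies at 0.79 in F2 and 1.71 in F1.

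Levels also differed between the generations in both lineages. The tables were normalized separately and no test joins them, so these levels are a description, and generation cannot be told apart from anything else that differed between the tables. Among the 28 genes that reached 1 FPKM, 5 were at least 2-fold higher in F2 than in F1 in both lineages, or 17.9%. The share was 5.62% of all rows that reached 1 FPKM and were above 0 in both F1 groups. The 5 genes were slc6a12, slc38a2, slc6a6, slc1a4 and slc1a5. For slc6a6 the levels differed 7.74-fold between F2 BaP and F1 BaP and 9.98-fold between F2 control and F1 control livers. Another 6 were at least 2-fold lower in F2 than in F1, 21.4% against 20.1% of all such rows: slc7a10, slc38a8, slc7a13, slc43a1, slc38a5 and slc38a10. For all such rows the median ratio was 0.777 between F2 BaP and F1 BaP and 0.777 between F2 control and F1 control. Of the 5 higher in F2, slc38a2, slc1a4, slc1a5 and slc6a12 also had log2 fold changes above 0 in both generations in the authors' deposited tables, and slc6a6 had -0.09 in F2 and 0.28 in F1. None of these changes was called. Among the 27 transporters tested in both tables, 8 had values above 0 in both, 6 had values below 0 in both and 13 had opposite signs. The shares of all rows above or below 0 in both were not computed.

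Several members of the same family that lie on the same stretch of a chromosome had very unequal maximum levels, each taken over the 4 groups. Both ends of the locus were identical to the RefSeq gene table of assembly UCB_Xtro_10.0 for 58 of the 59 genes. Positions below are on this assembly and count from 1. On chromosome 3, slc38a4 (63599310 to 63651660), slc38a2 (63700702 to 63718996) and slc38a1 (63749207 to 63791752) lie in a row, 49042 and 30211 bases apart. Only slc38a2, the middle gene, exceeded 0.05 FPKM. Also on chromosome 3, slc6a13 (9988000 to 10011835) and slc6a12 (10031402 to 10060611) lie 19567 bases apart. There slc6a12 reached 6.97 FPKM in F2 BaP livers and slc6a13 0.422 FPKM in F2 control livers. In F1 control livers the 2 were closer, at 0.241 and 0.177 FPKM. On chromosome 8, slc6a14.1 (66637651 to 66670888) and slc6a14.2 (66675995 to 66700772) lie 5107 bases apart, with maxima of 21.3 and 0.316 FPKM. On chromosome 4, slc7a10 (68927170 to 68961960) reached 39.4 FPKM and slc7a9 (69237170 to 69263471), 275210 bases away, 0.0688 FPKM. On chromosome 1, slc7a8 (139552281 to 139587005) and slc7a7 (140457297 to 140474547) are 870292 bases apart and both were well expressed. The exception in position, slc7a6os, has different ends in the RefSeq table and was not called in either generation, with log2 fold changes of 0.07 and -0.20 in the authors' deposited tables.

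Genes that sense amino acids or work with the carriers were read from 4 lists. Amino acid shortage acts on transporter genes through the factor ATF4, and amino acids at the lysosome act on mTORC1 through the Rag GTPases, on which folliculin (flcn) and its partner fnip1 act. In F2 none of the tested genes in these lists was called by Cuffdiff: 24 of ATF4 and the integrated stress response, with 4 at an unadjusted p under 0.05, 36 of mTORC1 sensing, with 0, 17 other amino acid and peptide carriers, with 2, and 10 partners and trafficking factors, with 0. Of all tested rows in F2, 1.32% were called and 8.9% had such a p. In F1 3 were called, where 1.67% of all tested rows were. An unadjusted p under 0.05 was seen in F1 for 3 of 23 ATF4 genes, 4 of 36 mTORC1 genes, 4 of 18 other carriers and 1 of 10 partners, against 8.91% of all tested rows. The genes fnip1 and flcn, 2 of 36 in the mTORC1 list, fell, and ddit4, 1 of 23 in the ATF4 list, rose. The level of fnip1 was 7.40 FPKM in F1 BaP and 17.4 FPKM in F1 control livers, with a log2 fold change of -1.23 and q = 0.0113 in the authors' deposited table. For flcn it was 13.4 FPKM in F1 BaP and 27.6 FPKM in F1 control livers, with -1.04 and q = 0.0219 there. The mTORC1 inhibitor gene ddit4 had 39.1 FPKM in F1 BaP and 10.1 FPKM in F1 control livers, with 1.95 and q = 0.0154 in the authors' deposited table.

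In F2 the same 3 genes had log2 fold changes of -0.07 (fnip1), 0.09 (flcn) and -0.59 (ddit4, unadjusted p = 0.0455) in the authors' deposited table, none called. Computed from the authors' deposited tables, the difference between generations passed for ddit4, at -2.54 (adjusted p = 0.0049, Benjamini-Hochberg, and 0.999999 with standard errors from the test statistic), and did not pass for fnip1 (1.16, adjusted p = 0.196) or flcn (1.13, adjusted p = 0.145). The list medians lay near those of all rows: 0.03 in F2 and 0.06 in F1 for ATF4, and 0.01 and 0.02 for mTORC1 sensing. Uncalled genes of these lists, chosen after their values were seen, were phgdh of serine synthesis at 1.28 in F2 (q = 0.0622), chac1 at 1.52 in F1 (q = 0.0827) and fnip2 at -0.99 in F1 (q = 0.151) in the authors' deposited tables. At an unadjusted p under 0.05, 2 ATF4 genes were higher and 2 lower in F2, and 2 higher and 1 lower in F1. In the mTORC1 list 1 was higher and 3 were lower in F1. In the authors' deposited tables cth had -0.58 in F2 (q = 0.525). There asns had 0.62 in F2 (q = 0.542) and -0.63 in F1 (q = 0.561). Among the other carriers, of which 1 was higher and 3 were lower at an unadjusted p under 0.05 in F1, and which had medians of -0.15 in F2 and -0.14 in F1, the peptide carrier gene slc15a2 had -1.67 in F1 (q = 0.0668) and the mitochondrial carrier gene slc25a29 had 0.85 in F1 (q = 0.174) in the authors' deposited table. Among the partners, with medians of -0.01 in F2 and 0.22 in F1, the kinase gene sgk1, which raises the surface level of several carriers in mammals, had 0.75 in F1 (unadjusted p = 0.0271, q = 0.412), and arl6ip5 had 0.48 (q = 0.820), in the authors' deposited table.

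**Figure D4:**
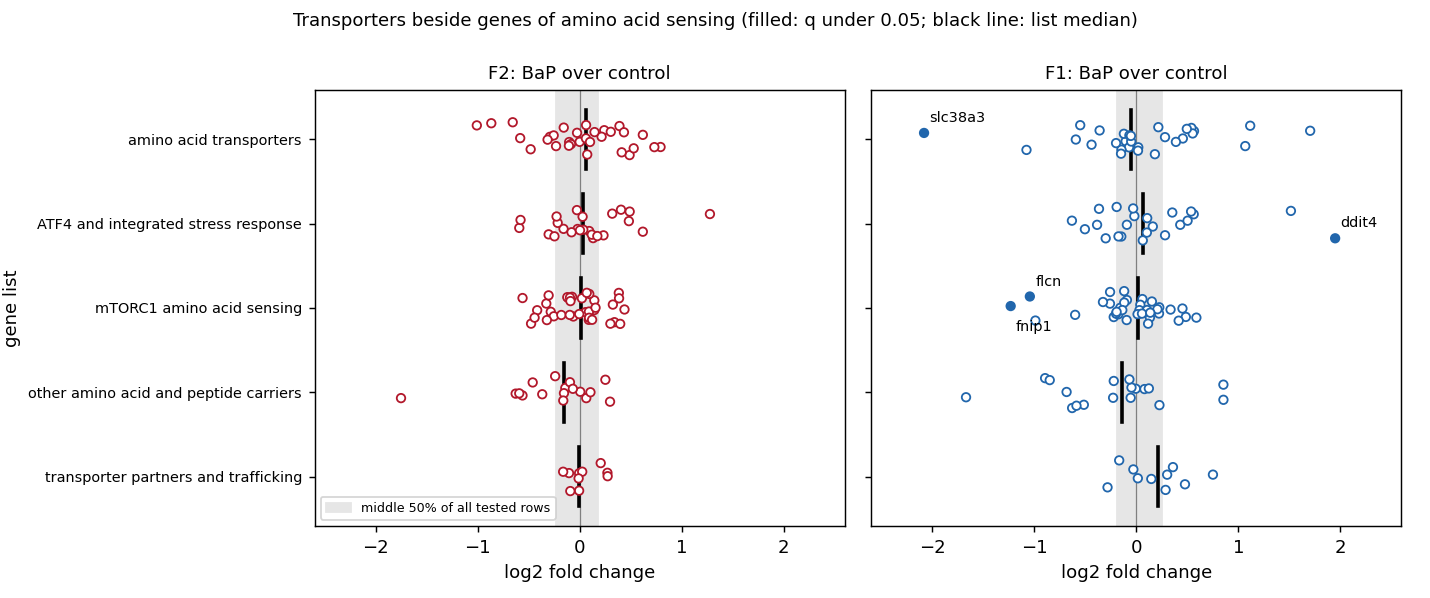
Log2 fold changes of tested genes, BaP over control, in F2 (left) and F1 (right), for the transporters and 4 lists of sensing and partner genes. Each point is a gene, filled where q was under 0.05, the black line is the list median and the grey band holds the middle 50% of all tested rows. All medians lie inside the band in both generations, and the filled points are slc38a3, fnip1, flcn and ddit4 in F1.

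Hepatocyte markers were abundant: the median over 18 of them was 675.5 FPKM in F2 BaP and 770.9 FPKM in F2 control livers, and 925.0 FPKM in F1 BaP and 658.0 FPKM in F1 control livers. Of these, 16 were tested in F2 and 17 in F1, and Cuffdiff called 0, with 0 at an unadjusted p under 0.05 in either table. Their median log2 fold change in the authors' deposited tables was -0.21 in F2, with 13 of 16 below 0. In F1 it was 0.27, with 14 of 17 above 0. Among all tested rows, 45.8% in F2 and 53.2% in F1 were above 0. The rows of alb, and of tf in F2, were marked as too much data and hold 0, which is not a level, though the median FPKM counts it. Other tissues' markers also differed between BaP and control livers, and their part in the transporter results was not tested. The 15 measured pancreas markers summed to 346.8 FPKM in F2 BaP and 335.9 FPKM in F2 control livers, and to 705.9 FPKM in F1 BaP and 623.3 FPKM in F1 control livers. Of these, 0 of 6 tested were called in F2, with 3 at an unadjusted p under 0.05, all higher. In F1, 3 of 10 were called higher (ctrc, ctrb2 and cpb1), with 4 at such a p, all higher. Of all tested rows, 1.32% were called in F2 and 1.67% in F1. The sums were mostly amy2a and amy2b. The median log2 fold change of the tested pancreas markers in the authors' deposited tables was 2.03 in F2 (6 genes) and 4.31 in F1 (8 genes with a finite value). For ctrc the level was 5.17 FPKM in F2 BaP and 0.316 FPKM in F2 control livers, and 14.4 FPKM in F1 BaP and 0.433 FPKM in F1 control livers. The lipase gene pnlip and prss2 were at 0 in all 4 groups, and ctrb2 and cpb1 were at 0 in F1 control livers. The 12 measured muscle markers summed to 5.70 FPKM in F2 BaP and 13.2 FPKM in F2 control livers. In F1 they summed to 4.17 FPKM in BaP and 16.6 FPKM in control livers. Of the tested muscle genes, 1 of 4 was called lower in F2 (acta1) and 3 of 5 in F1 (acta1, tnnt1 and ckm). An unadjusted p under 0.05 was seen for 3 of 4 in F2 and 3 of 5 in F1, all lower. Every tested muscle gene was below 0, with a median log2 fold change of -1.34 in F2 and -1.88 in F1. In the red cell list hbd rose in F1, 1 of 8 tested, and 0 of 8 were called in F2. All 8 were above 0 in F1, 2 with an unadjusted p under 0.05, and 4 of 8 were above 0 in F2, 0 with such a p. The globin genes hba1 and hbg1 were marked as too much data in both generations and were not tested. The neuron and glia, intestine, leukocyte and kidney lists held 0 calls in either generation. An unadjusted p under 0.05 was seen for 2 of 3 tested neuron and glia genes in F2 and 1 of 5 in F1. It was seen for 1 of 11 leukocyte genes and 0 of 3 intestine genes in each generation. Of the kidney genes 0 were tested in F2, and 1 of 1 tested in F1 had such a p. Among all tested rows, 8.9% in F2 and 8.91% in F1 did. The 12 measured kidney markers, a tissue rich in several of these carriers, summed to at most 1.18 FPKM in any group.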

How the data were processed

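Stranded mRNA libraries of 21 female frogs, each from 15 mg of liver, were read at 75 bp, per the labels' protocols. Cuffdiff 0.0.7, Cufflinks 0.0.7, HISAT2 and Trimmomatic 0.32.1 are named in the submitters' processing notes, without their order; the genome build and settings were not given in the sources used here. Both tables set BaP against control by Cuffdiff, in F2 and in F1, per the file headers. FPKM was deposited as 1 value per group. As deposited, the log2 fold change divides BaP by control and adds no pseudocount. The deposited test statistic is a score, and the p-value and q-value beside it are the authors'. Replicates are separate frogs as labelled, and the authors' tests were not repeated, so precision rests on them. Relatedness among the frogs of a lineage was not analysed, so how far they are independent replicates of the ancestral exposure was not tested.

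The difference between generations was computed in Python 3.11.15 with scipy 1.17.1: each standard error was the size of the deposited log2 fold change over the normal quantile of its two-sided p, the normal p of the difference was two-sided, and adjustment was by Benjamini-Hochberg over all rows tested in both tables. The step was tested on data simulated with the same normal errors. Such data check the computation and cannot show whether the deposited p or the test statistic gives the right error. Intervals used 1.96 standard errors. The 2 tables were normalized separately, and 0 columns were left unmapped. Members, lists and tests were chosen with earlier results of these data known. Genes given with full values were those called, those with an unadjusted p under 0.05 in either generation, the 10 of highest mean FPKM, the 3 with the smallest p of the difference, and both heavy chains. Other genes with full values, such as slc38a9, slc6a6 and slc7a13, were chosen after their values were seen. Of the 59 genes, 1 is not reported here by name, though it stays in the counts and sums. Alternatives were q under 0.01 or 0.1, q recomputed, an FPKM minimum of 1, a fold minimum of 1.5, pseudocounts of 1 and 0.1, centring, leaving out the slc6a family, and other standard errors. After seeing the data, slc7a6os was left out and the difference was scaled to its spread. A planned search of promoters for a motif was not run, since no sequence was used here.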

Additional observations from a re-analysis of the deposited data

Results flagged for a closer look

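The change of slc38a3 differed between the generations with standard errors taken from the deposited p, and not with those from the test statistic (adjusted p = 0.999999, from the authors' deposited tables). Its log2 fold change, BaP over control, was 0.73 in F2 and -2.08 in F1 in the authors' deposited tables, a difference of 2.81 (95% interval 1.62 to 4.01, adjusted p = 0.00189, Benjamini-Hochberg over 11677 rows). It was the 1 transporter of 27 tested in both tables whose difference passed, where 0.959% of all rows passed. The F1 p was the smallest the table gives, 5e-05. Whether it rests on 1 or on many of the 6 F1 BaP frogs was not tested, because no value of a single library was used.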

How the results depend on the processing

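The call of slc38a3 in F1 held at q under 0.01, with q recomputed (0.00654, and 0.00647 over tested rows reaching 1 FPKM), at a 1.5-fold minimum and without slc7a6os. These settings could hardly move it, since its q was already under 0.01 and its change was 4.23-fold. Recomputing q over the same tested rows repeats the deposited adjustment, and slc7a6os is another gene. Standard errors from the deposited test statistic were not applied to calls within a generation. How the call depends on them was not tested. At q under 0.1 the calls numbered 1 in F2 and 2 in F1, in place of 0 and 1, and the share of all tested rows was not computed. At an unadjusted p under 0.05 they numbered 6 in F2 and 5 in F1, where 8.9% and 8.91% of all tested rows had such a p. With q recomputed over tested rows reaching 1 FPKM, 1 transporter was called in F2, slc6a14.1, through fewer rows in the adjustment. The share of all those rows called in this way was not computed. The count of differences between generations, 1, fell to 0 with standard errors from the test statistic (adjusted p of slc38a3 0.999999, against 0.0013 to 0.00444 under the other settings). The difference of ddit4 was lost in the same way (0.999999, against 0.00456 to 0.0102 under the other settings). The count of transporters stayed at 1 with an adjusted p under 0.1, an FPKM minimum, centring, scaling to the spread (an alternative chosen after seeing the data) and without slc7a6os. The median log2 fold change of the transporters moved by less than 0.1 under each alternative; in F1 it was 0.02 without the slc6a family, against -0.05. Leaving out single frogs was not run, since it needs values of single libraries. No paired analysis was possible because the columns hold 1 value per group and carry no replicate number. An unknown depth per library limits every gene under 1 FPKM, most of which were not tested.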
